A study of Mus musculus with 9 samples.

Results

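The 8 keratins described here, Krt7, Krt8, Krt18, Krt19, Krt5, Krt14, Krt15 and Krt17, were chosen by name among 19938 measured genes as the simple (Krt7, Krt8, Krt18, Krt19) and basal (Krt5, Krt14, Krt15, Krt17) keratins of mammary epithelium. Each had 1 probe set annotated with its symbol alone, so no choice between such probe sets was needed. Probe sets listed with several symbols or with none were left out. The RNA came from 3D cultures of the mouse line D2.OR, mammary tumor cells known for staying dormant long after they have spread. The groups were fibrillar collagen I, non-fibrillar collagen I and Matrigel, a basement membrane extract rich in laminin, with 3 arrays each. All groups are the same line, and the labels give no treatment, time or culture identity. The spread behind every p-value is that among these arrays, which may be technical.

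The Matrigel group rests on the sample titles: the growth label of those 3 arrays names non-fibrillar collagen I, and the design of the series names only the collagen conditions. Those arrays also belong to a later block of accession numbers, so anything that goes with that block cannot be told apart from Matrigel. Values are log2 expression per probe set after RMA, a method that corrects background, quantile-normalizes the arrays and summarizes the probes of each set. Column medians ran from 5.98 to 6.05 over all 35512 probe sets. Precision is limited by there being 3 arrays per group. Of the epithelial markers, Cdh1 (E-cadherin) reached 9.12 log2 units over the 9 arrays and Epcam lay at 5.84 to 6.24, and the mesenchymal filament gene Vim was at 13.25 to 13.37. Markers of leukocytes (Ptprc, 4.72 to 5.12) and endothelium (Pecam1, 4.85 to 5.02) are given on the same scale. These genes do not stand for all markers of other cell types. Macrophage markers Cd68 and Cd14 lay at 7.56 to 9.07 and 7.49 to 8.12. Endothelial Kdr lay at 5.59 to 6.33 and fibroblast Pdgfra at 10.12 to 11.36. No detection calls were used, and the brightness of a probe set depends on its sequence as well as on its transcript, so levels of different genes were not ranked. As a rough guide to dim signals only, the means of 1194 olfactory and vomeronasal receptor genes, which act mainly in sensory neurons, lay between 2.96 and 5.19 from the 5th to the 95th percentile.

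Keratins are the intermediate filament proteins of epithelial cells. A filament is built from pairs of a type I keratin (Krt18, Krt19, Krt14, Krt15 and Krt17 here) and a type II keratin (Krt7, Krt8 and Krt5), so the partners are usually made together. In the mammary gland, luminal cells make the simple pair Krt8 and Krt18 with Krt7 and Krt19, while basal and myoepithelial cells make the Krt5 and Krt14 pair, with Krt15 and Krt17 in subsets of basal or stressed epithelium. Filaments are tied to neighbouring cells at desmosomes and to the underlying matrix at hemidesmosomes. Fragments of Krt8 and Krt18 are widely used as epithelial tumor markers. Krt14, Krt16 and Krt17 resemble each other closely, and Krt8 and Krt18 have processed pseudogenes, so each of these probe sets may read more than its own transcript and single members of this kind are uncertain.

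Krt7, Krt8 and Krt18 lie in the keratin cluster on chromosome 15 in GRCm38.p6, together with Krt5, and the other 4 genes lie in the cluster on chromosome 11. Promoter windows from RefSeq, from 250 bases before to 50 bases after the annotated start, were found for 5 of the 8 keratins. Those of Krt7, Krt8 and Krt18 are shown because for these 3 simple keratins every collagen array lay above every Matrigel array. By comparison, groups lay apart in the higher direction for 9.05% of all genes in fibrillar collagen against Matrigel and for 14.4% in non-fibrillar collagen. Capitals mark matches to a GC box (GGGCGG) and a TATA box (TATAAA) on either strand. The windows of Krt5 and Krt14, not shown, held 0 of either.
Krt7, chr15:101412153-101412452, plus strand: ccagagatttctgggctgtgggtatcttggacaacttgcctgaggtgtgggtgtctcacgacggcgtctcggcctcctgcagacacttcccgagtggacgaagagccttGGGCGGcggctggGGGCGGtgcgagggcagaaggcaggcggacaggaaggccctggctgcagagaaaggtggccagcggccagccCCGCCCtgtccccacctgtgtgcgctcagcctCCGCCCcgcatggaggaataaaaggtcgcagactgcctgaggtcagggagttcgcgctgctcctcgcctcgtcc
Krt8, chr15:102004293-102004592, minus strand: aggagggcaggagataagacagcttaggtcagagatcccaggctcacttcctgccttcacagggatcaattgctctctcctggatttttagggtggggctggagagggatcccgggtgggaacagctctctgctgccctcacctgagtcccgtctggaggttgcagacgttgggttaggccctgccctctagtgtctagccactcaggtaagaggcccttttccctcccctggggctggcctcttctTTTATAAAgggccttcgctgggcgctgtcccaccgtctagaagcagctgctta
Krt18, chr15:102027966-102028265, plus strand: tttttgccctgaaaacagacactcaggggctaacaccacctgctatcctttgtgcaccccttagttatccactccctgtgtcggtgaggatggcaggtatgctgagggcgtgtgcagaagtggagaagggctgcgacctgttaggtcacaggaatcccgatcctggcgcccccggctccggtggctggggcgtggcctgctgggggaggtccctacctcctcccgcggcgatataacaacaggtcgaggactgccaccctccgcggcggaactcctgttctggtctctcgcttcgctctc
The Krt7 window held 4 GC boxes and 0 TATA boxes. The Krt8 window held 0 GC boxes and 2 matches to the TATA box. These are the same stretch read on both strands, beginning at -3 and -1 bases from the annotated start and running across it. The Krt18 window held 0 of either. Over all 32851 windows of this length in the table, 35.7% held a GC box and 13.6% a TATA box. The AP-1 site TGANTCA was in 0 of these 3 windows, against 7.81% of all windows. The AP-2 site GCCNNNGGC had 2 matches in the Krt7 window, 1 in the Krt18 window and 0 in the Krt8 window, against 16.6% of all windows with a match. The E-box CANNTG had 1 match in the Krt7 window, 3 in the Krt8 window and 1 in the Krt18 window, and it was in 72.3% of all windows. All motifs were searched on both strands, and a match or its lack in these letters says nothing about the factors that bind there.

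In a test of any difference among the 3 matrices, 3 of the 8 keratins passed, Krt7, Krt18 and Krt14, against 15.0% of all genes (limma F test, Benjamini-Hochberg adjusted over all genes, threshold 0.05). Adjusted p was 1.5e-06 for Krt7, 0.0026 for Krt14 and 0.0030 for Krt18. Krt15 was at 0.0662, Krt8 at 0.0905, Krt5 at 0.228, Krt19 at 0.534 and Krt17 at 0.571. By p, Krt7 ranked 2 of all 19938 genes in this test. At an unadjusted p under 0.05, 5 of the 8 passed, against 28.3% of all genes.

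**Figure D1:**
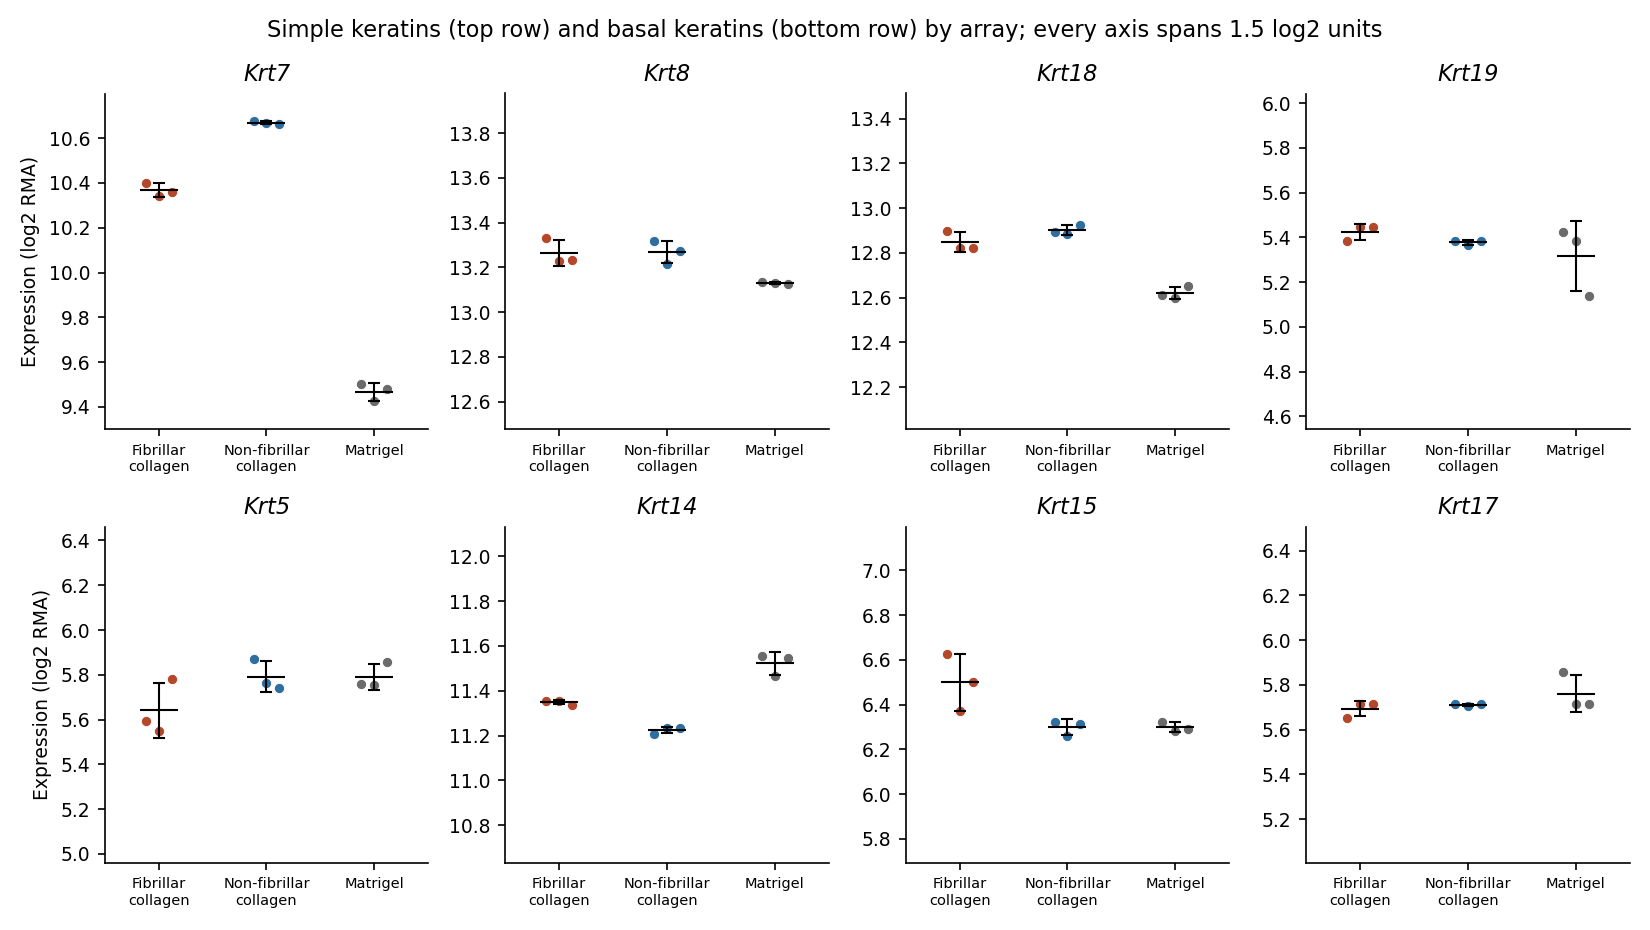
Expression of the 8 keratins in log2 RMA units on each of the 9 arrays, by matrix; points are arrays, the long bar is the mean and the error bar the SD (n = 3). Every panel spans the same number of log2 units, so the steps of Krt7 (a mean of 10.37 in fibrillar collagen, 10.67 in non-fibrillar and 9.47 in Matrigel) can be set against the small steps of the others.

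The simple keratin Krt7, a type II keratin of luminal and ductal epithelium, differed most. It was at 10.40, 10.34 and 10.36 log2 units in fibrillar collagen, 10.68, 10.67 and 10.66 in non-fibrillar collagen, and 9.50, 9.42 and 9.48 in Matrigel. All arrays of each matrix lay apart from those of the others, with non-fibrillar collagen highest and Matrigel lowest. Against non-fibrillar collagen, Krt7 was 1.23-fold lower in fibrillar collagen (log2 -0.30 ± 0.0338 SE, n = 3 per group, limma adjusted p = 0.0092). Against Matrigel it was 1.87-fold higher in fibrillar collagen (0.90 ± 0.0386, adjusted p = 8.7e-06) and 2.30-fold higher in non-fibrillar collagen (1.20 ± 0.0386, adjusted p = 5.6e-07). The order of its levels was therefore non-fibrillar collagen, fibrillar collagen, Matrigel, and each step exceeded the spread between arrays. Both calls against Matrigel were kept whichever array was left out; the call between the collagens was lost without fibrillar replicate 3 (-0.32 at its lowest and -0.26 at its highest over all refits, adjusted p up to 0.0502).

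Krt18, the type I partner of Krt8, followed at a smaller size. It was at 12.90, 12.82 and 12.82 in fibrillar collagen, 12.89, 12.88 and 12.92 in non-fibrillar collagen, and 12.61, 12.60 and 12.65 in Matrigel. Every collagen array lay above every Matrigel array, while the collagens overlapped. Krt18 was 1.17-fold higher in fibrillar collagen than in Matrigel (0.23 ± 0.0399, limma adjusted p = 0.0144) and 1.21-fold higher in non-fibrillar collagen than in Matrigel (0.28 ± 0.0399, adjusted p = 0.0015). The first of these calls was lost without Matrigel replicate 2 (adjusted p = 0.0586). Between fibrillar and non-fibrillar collagen the difference was -0.05 log2 units with a 95% interval from -0.14 to 0.04 (adjusted p = 0.475), so a change of the size seen for Krt7 lies outside that interval.

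Krt8, the type II keratin of the simple pair, did not pass in any comparison. It was at 13.33, 13.23 and 13.23 in fibrillar collagen, 13.32, 13.22 and 13.27 in non-fibrillar collagen, and 13.14, 13.13 and 13.12 in Matrigel. The collagen arrays lay above the Matrigel arrays without overlap, and the collagens overlapped each other. The difference was 0.13 (95% interval 0.03 to 0.23, limma adjusted p = 0.143) between fibrillar collagen and Matrigel and 0.14 (0.04 to 0.24, adjusted p = 0.0707) between non-fibrillar collagen and Matrigel. Between the collagens it was -0.0043 (-0.11 to 0.11). With a trended robust prior both differences from Matrigel passed (adjusted p = 0.0460 and 0.0168), and the one for non-fibrillar collagen also passed after centring on array medians (0.0396) and among genes with a mean of at least 6 (0.0358).

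Krt19, a type I keratin of luminal and simple epithelia, was dim, at 5.38, 5.45 and 5.45 in fibrillar collagen, 5.38, 5.36 and 5.38 in non-fibrillar collagen, and 5.43, 5.38 and 5.14 in Matrigel. The groups overlapped, and 4 of its 9 values were identical to every digit deposited. Differences were 0.05 (-0.04 to 0.13) between the collagens, 0.11 (-0.04 to 0.26) between fibrillar collagen and Matrigel and 0.06 (-0.09 to 0.21) between non-fibrillar collagen and Matrigel, with adjusted p of 0.481, 0.443 and 0.658 (limma).

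Among the basal keratins, Krt14, the type I keratin of basal and myoepithelial cells, ran opposite to Krt7. It was at 11.35, 11.35 and 11.34 in fibrillar collagen, 11.21, 11.24 and 11.23 in non-fibrillar collagen, and 11.56, 11.46 and 11.55 in Matrigel. The groups did not overlap, with Matrigel highest and non-fibrillar collagen lowest. Krt14 was 1.23-fold lower in non-fibrillar collagen than in Matrigel (-0.30 ± 0.0391, limma adjusted p = 9.8e-04), a call kept in all 6 refits that left out an array. In fibrillar collagen it was 1.13-fold lower than in Matrigel (-0.17 ± 0.0391, adjusted p = 0.0414), a call lost without any array but Matrigel replicate 2 (adjusted p 0.0924, 0.0932 and 0.101 without fibrillar replicate 1, 2 or 3, and 0.103 and 0.111 without Matrigel replicate 1 or 3). It was lost as well with only the 6 arrays of both groups (0.0898), after quantile normalization again (0.0736) and after centring on array medians (0.0962). Between fibrillar and non-fibrillar collagen the difference was 0.12 ± 0.0318 (adjusted p = 0.0738), and it passed after quantile normalization again (0.0463), among genes with a mean of at least 6 (0.0494) and with a trended robust prior (0.0253).

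Krt5, the type II partner of Krt14, passed no test. It was at 5.59, 5.55 and 5.78 in fibrillar collagen, 5.87, 5.76 and 5.74 in non-fibrillar collagen, and 5.76, 5.75 and 5.86 in Matrigel. The groups overlapped. Differences were -0.15 (-0.32 to 0.02) between the collagens, -0.15 (-0.30 to -0.0020) for fibrillar collagen against Matrigel and 0.00056 (-0.15 to 0.15) between non-fibrillar collagen and Matrigel, with limma adjusted p of 0.280, 0.269 and 0.999.

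Krt15, a type I keratin of basal cells, was at 6.63, 6.37 and 6.50 in fibrillar collagen, 6.32, 6.26 and 6.32 in non-fibrillar collagen, and 6.32, 6.28 and 6.29 in Matrigel. Its fibrillar arrays were the highest and the most spread, and lay apart from both other groups, which overlapped. Its differences did not pass: 0.20 ± 0.0666 between the collagens (limma adjusted p = 0.147) and 0.20 ± 0.0598 for fibrillar collagen against Matrigel (adjusted p = 0.106). The difference from Matrigel passed without fibrillar replicate 2 (adjusted p = 0.0420). Non-fibrillar collagen and Matrigel differed by -0.00025 (-0.13 to 0.13).

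Krt17, a type I keratin of epidermal appendages and injured epithelium, was at 5.65, 5.71 and 5.71 in fibrillar collagen, 5.71, 5.71 and 5.71 in non-fibrillar collagen, and 5.86, 5.71 and 5.71 in Matrigel. Of these 9 values 5 were identical, and the groups overlapped. Its differences lay between -0.07 and -0.02, with limma adjusted p from 0.495 to 0.804.

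**Figure D2:**
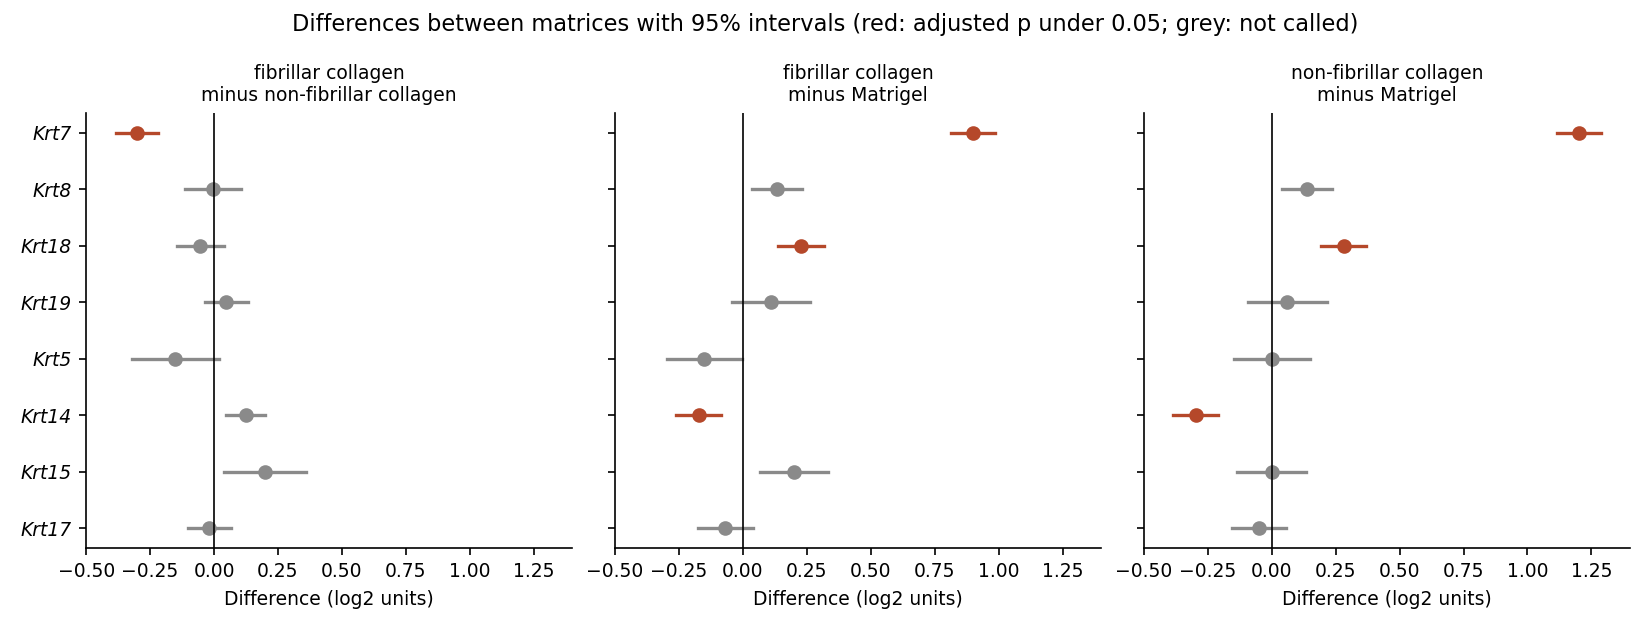
Differences between matrices in log2 units for the 8 keratins, with limma's 95% intervals (n = 3 arrays per group); red marks an adjusted p under 0.05 and grey a difference that was not called. Krt7 is called in all 3 comparisons, Krt18 and Krt14 in both comparisons with Matrigel, and the other 5 in none.

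Counted together, 1 of the 8 keratins was called between the collagens (Krt7, lower), where 6.4% of all genes were called, 2.71% higher and 3.69% lower. Against Matrigel, 2 were higher and 1 lower in fibrillar collagen, where 3.82% of all genes were called (1.45% higher, 2.37% lower), and 2 were higher and 1 lower in non-fibrillar collagen, where 13.8% were called (6.75% higher, 7.07% lower). The median difference of the 8 was -0.01, 0.12 and 0.03 log2 units in these comparisons, against 0.01, 0.00 and 0.00 over all genes. Between the collagens the groups did not overlap for 3 of the 8, 2 higher and 1 lower, against 25.2% of all genes (11.6% higher, 13.6% lower). Between fibrillar collagen and Matrigel this held for 4 higher and 1 lower, against 20.4% (9.05% higher, 11.3% lower), and between non-fibrillar collagen and Matrigel for 3 higher and 1 lower, against 28.4% (14.4% higher, 14.0% lower). At an unadjusted p under 0.05, 3, 6 and 4 of the 8 passed in the 3 comparisons, against 21.6%, 18.1% and 25.5% of all genes. Within the classes, the 4 simple keratins had medians of -0.03, 0.18 and 0.21 and the 4 basal keratins 0.05, -0.11 and -0.03. The comparisons share arrays and are not independent of each other, and no difference between the classes was tested. Shares over all genes include dim ones. Fits of only the 11052 genes with a mean of at least 6 called larger shares, 2111, 1211 and 3403 genes in the 3 comparisons.

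The balance between keratins was followed within each array as the log2 difference of a pair, for 7 pairs. Krt7 and Krt8 are both of type II. Krt14 and Krt17, like Krt19 and Krt18, are both of type I, so these pairs are not filament partners. Only the change of a pair between matrices can be read, since its offset also holds the brightness of its probes. Krt7 minus Krt8 was -2.90 ± 0.0303 in fibrillar collagen, -2.60 ± 0.0473 in non-fibrillar collagen and -3.66 ± 0.0387 in Matrigel (SD, n = 3), so that Krt7 was higher relative to Krt8 in both collagens than in Matrigel while its level relative to Krt8 was lower in fibrillar collagen than in its non-fibrillar form, with no overlap. In an exact permutation test over the 3 groups this pair, Krt7 minus Krt18 and Krt7 minus Krt19 each had p = 0.0036, the smallest that the 1680 arrangements can give (adjusted over 7 pairs 0.0083). The change of Krt7 minus Krt18 was -0.25 ± 0.0184 between the collagens, 0.67 ± 0.0251 for fibrillar collagen against Matrigel and 0.92 ± 0.0267 between non-fibrillar collagen and Matrigel (SE). Krt7 therefore did not move by the same amount as the Krt8 and Krt18 pair.

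The Krt8 and Krt18 partners shifted much less against each other. Krt8 minus Krt18 was 0.42 ± 0.0129 in fibrillar collagen, 0.37 ± 0.0480 in non-fibrillar collagen and 0.51 ± 0.0333 in Matrigel (exact permutation p = 0.011, adjusted 0.015). Among the basal partners, Krt5 minus Krt14 was -5.71 ± 0.132 in fibrillar collagen, -5.43 ± 0.0839 in non-fibrillar collagen and -5.73 ± 0.0561 in Matrigel (exact permutation p = 0.032, adjusted 0.038). Krt5 was dim, with a mean of 5.74, and passed no test on its own. Between non-fibrillar collagen and Matrigel the pair changed by 0.30, Krt14 alone by -0.30 and Krt5 alone by 0.0006. In the same exact permutation test Krt14 minus Krt17 had p = 0.0071 (adjusted 0.013) and Krt19 minus Krt18 had p = 0.0929, also its adjusted value. Krt17 and Krt19 were dim with values repeated across arrays, which limits what the pairs that hold them show. For a single comparison of 3 against 3 arrays the smallest exact p is 0.1, so no pair can pass there. The pairs that hold Krt7 share its values and are not independent of each other.

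**Figure D3:**
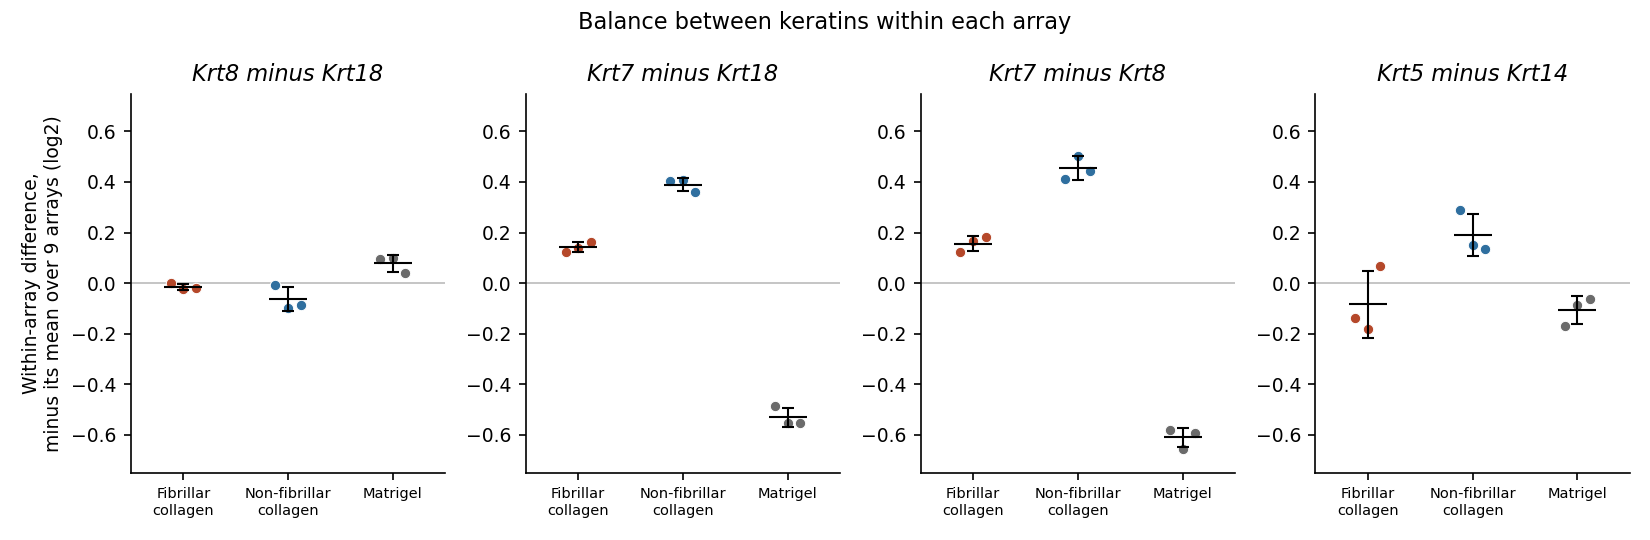
Within-array log2 difference of 4 keratin pairs, minus the mean of that difference over the 9 arrays, by matrix; points are arrays, the long bar is the mean and the error bar the SD (n = 3). Krt7 stands lowest against Krt18 and Krt8 in Matrigel and highest in non-fibrillar collagen, while Krt8 against Krt18 stays within a much narrower range.

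The genes whose profile over the 9 arrays was most like that of a changed keratin were found by Pearson's r among genes with a mean of at least 6; these arrays form 3 groups and share their normalization, and r is a description. For Krt7 they were Anxa3, an annexin (r = 0.993), Tnc, the matrix protein tenascin C (r = 0.992), and Pvr, the poliovirus receptor and nectin-like adhesion protein (r = 0.989). For Krt18 they were Anxa3 (0.984), asparagine synthetase Asns (0.983) and Pvr (0.981). For Krt14 they were the co-receptor Nrp1 (0.989), the sugar phosphate transporter Slc37a2 (0.986) and Dsg3, a desmosomal cadherin of basal layers (0.985). Dsg3 was at 7.10, 7.05 and 7.03 in fibrillar collagen, 6.66, 6.83 and 6.60 in non-fibrillar collagen and 7.56, 7.40 and 7.53 in Matrigel, the same order as Krt14 and with no overlap. Since Dsg3 was picked by its r with Krt14 over these arrays, the shared order adds no evidence. Among the 8 keratins themselves r was 0.979 for Krt7 with Krt18, 0.861 for Krt7 with Krt8, 0.908 for Krt8 with Krt18 and -0.955 for Krt7 with Krt14, while Krt5 with Krt14 was at 0.052.

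Of the 44 other numbered keratins, most of which belong to hair, skin or other stratified epithelia, 0 passed between the collagens with limma (6.4% of all genes did), and 2 had an unadjusted p under 0.05 (21.6% of all genes). The smallest p values were those of Krt6a (-0.22 ± 0.0531, adjusted p = 0.0594), Krt20 (-0.28 ± 0.0752, adjusted p = 0.0815) and Krt33b (0.15 ± 0.0647, adjusted p = 0.249). Krt6a passed there with all 9 arrays in the fit (0.0268), and Krt20 did too (0.0347). Against Matrigel, Krt6a, a type II keratin of wounded and proliferating stratified epithelium, fell in both collagens. It was at 7.50, 7.47 and 7.47 in fibrillar collagen, 7.60, 7.72 and 7.79 in non-fibrillar collagen, and 8.34, 8.35 and 8.42 in Matrigel, with no overlap between any groups. In fibrillar collagen it was 1.85-fold lower (-0.89 ± 0.0517, limma adjusted p = 7.5e-05) and in non-fibrillar collagen 1.59-fold lower (-0.67 ± 0.0517, adjusted p = 5.0e-05), and both calls were kept whichever array was left out. Its order, with fibrillar collagen lowest, is not that of Krt14. Krt6a shares sequence with other type II keratins and is uncertain as a single gene.

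Krt80, a type II keratin found at cell margins in many epithelia, was higher in non-fibrillar collagen than in Matrigel (0.28 ± 0.0550, limma adjusted p = 0.0088) and in fibrillar collagen than in Matrigel (0.26 ± 0.0550, adjusted p = 0.0335). The second call was lost without any array but Matrigel replicate 1, and with only the 6 arrays of both groups (0.0829). Krt90 was higher in non-fibrillar collagen than in Matrigel (0.27 ± 0.0513, adjusted p = 0.0073). Krt13 was at 0.36 ± 0.0866 for fibrillar collagen against Matrigel (adjusted p = 0.0552). It passed there after quantile normalization again (0.0368), among genes with a mean of at least 6 (0.0257), with a trended robust prior (0.0437), with array weights (0.0422) and without Matrigel replicate 1 (0.0348), and by the limma F test over the 3 groups (adjusted p = 0.0416). In all, 1 of the 44 was higher and 1 lower in fibrillar collagen than in Matrigel (4.55% called, against 3.82% of all genes), and 2 were higher and 1 lower in non-fibrillar collagen than in Matrigel (6.82% called, against 13.8% of all genes).

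Genes that anchor keratin filaments were described from lists grouped by function, chosen with earlier results of these data known. All 8 measured hemidesmosome genes had a mean of at least 6. Of these, 5 differed between the collagens (62.5%, against 6.4% of all genes). In a fit of only the 11052 genes with such a mean, 2111 were called, a larger share than 6.4%. Of the 5, 4 were higher in fibrillar collagen and 1 lower, and the median of the 8 was 0.21 log2 units. The largest differences were those of Lama3, a chain of the laminin that hemidesmosomes bind (0.45 ± 0.0469, limma adjusted p = 0.0078), and the keratin-binding plakins Plec (plectin, 0.37 ± 0.0459, adjusted p = 0.0108) and Dst (dystonin, 0.33 ± 0.0633, adjusted p = 0.0347). Plec was at 9.26, 9.15 and 9.13 in fibrillar collagen, 8.83, 8.79 and 8.78 in non-fibrillar collagen, and 9.03, 9.09 and 9.10 in Matrigel. The integrin chain Itgb4 (0.27 ± 0.0557, adjusted p = 0.0432) was the other higher one, and the tetraspanin Cd151 (-0.22 ± 0.0453, adjusted p = 0.0405) the lower one; both were named after their values were seen. Each lost its call whichever array was left out (up to 0.131 for Itgb4 and 0.120 for Cd151), and Cd151 lost it with the replicate block (0.0509) and after quantile normalization again (0.0926). Lama3 was called whichever array was left out. Plec lost its call without fibrillar or non-fibrillar replicate 2 (adjusted p = 0.0518 and 0.0602), and Dst lost it whichever array was left out (up to 0.115).

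Against Matrigel, 2 of these 8 were higher and 0 lower in fibrillar collagen (25.0%, against 3.82% of all genes). In non-fibrillar collagen 0 were higher and 3 lower (37.5%, against 13.8% of all genes). The higher ones were the laminin-binding integrin chains Itgb4 (0.43 ± 0.0638, limma adjusted p = 0.0071), kept in all refits, and Itga6 (0.36 ± 0.0696, adjusted p = 0.0225), which lost its call without fibrillar replicate 2 or 3 or Matrigel replicate 1 or 2 (up to 0.0878) and with only the 6 arrays of both groups (0.0803). The lower ones in non-fibrillar collagen were Lama3 (-0.44 ± 0.0532, adjusted p = 6.7e-04), Plec (-0.27 ± 0.0460, adjusted p = 0.0039) and Dst (-0.28 ± 0.0590, adjusted p = 0.0125), of which Dst lost its call without Matrigel replicate 2 (0.0539).

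Of 13 measured desmosome genes, 2 differed between the collagens, both higher in fibrillar collagen (15.4%, against 6.4% of all genes). Dsp, desmoplakin, which ties keratin filaments to the desmosome, was at 10.55, 10.41 and 10.41 in fibrillar collagen, 9.97, 9.95 and 9.86 in non-fibrillar collagen, and 10.46, 10.52 and 10.59 in Matrigel. Between the collagens it was 1.44-fold higher in the fibrillar one (0.53 ± 0.0553, limma adjusted p = 0.0078, kept in all refits), and it was 1.51-fold lower in non-fibrillar collagen than in Matrigel (-0.59 ± 0.0562, adjusted p = 1.7e-04), while fibrillar collagen and Matrigel overlapped. Dsg3 was higher in fibrillar than in non-fibrillar collagen (0.36 ± 0.0630, adjusted p = 0.0272), a call lost without any array but non-fibrillar replicate 2 (up to 0.0966). Against Matrigel, 0 were higher and 2 lower in fibrillar collagen (15.4%, against 3.82% of all genes). In non-fibrillar collagen 0 were higher and 3 lower (23.1%, against 13.8% of all genes). Lower in both were Dsg3 (-0.44 ± 0.0650 in fibrillar and -0.80 ± 0.0650 in non-fibrillar collagen) and Perp, a desmosomal membrane protein and p53 target (-0.51 ± 0.0656 and -0.71 ± 0.0656), with adjusted p from 6.9e-05 to 0.0068.

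Of 8 keratin-organizing proteins, Eppk1 (epiplakin, which binds keratin filaments) was higher in fibrillar collagen than in its non-fibrillar form (0.48 ± 0.0502, limma adjusted p = 0.0078; 0.0527 without fibrillar replicate 3), and the other 7 were not called. Eppk1 (-0.37 ± 0.0470, adjusted p = 8.6e-04) and Dnajb6, a co-chaperone that binds Krt18 (-0.37 ± 0.0758, adjusted p = 0.0102), were lower in non-fibrillar collagen than in Matrigel. In fibrillar collagen against Matrigel 0 of the 8 passed with limma and 2 had an unadjusted p under 0.05 (18.1% of all genes); the smallest adjusted p was 0.0829, for Dnajb6. Shares called over the hemidesmosome, desmosome and organizing lists were 62.5%, 15.4% and 12.5% between the collagens, where 6.4% of all genes were called. They were 25.0%, 15.4% and 0.0% for fibrillar collagen against Matrigel (3.82% of all genes), with 37.5%, 23.1% and 25.0% called between non-fibrillar collagen and Matrigel (13.8%).

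**Figure D4:**
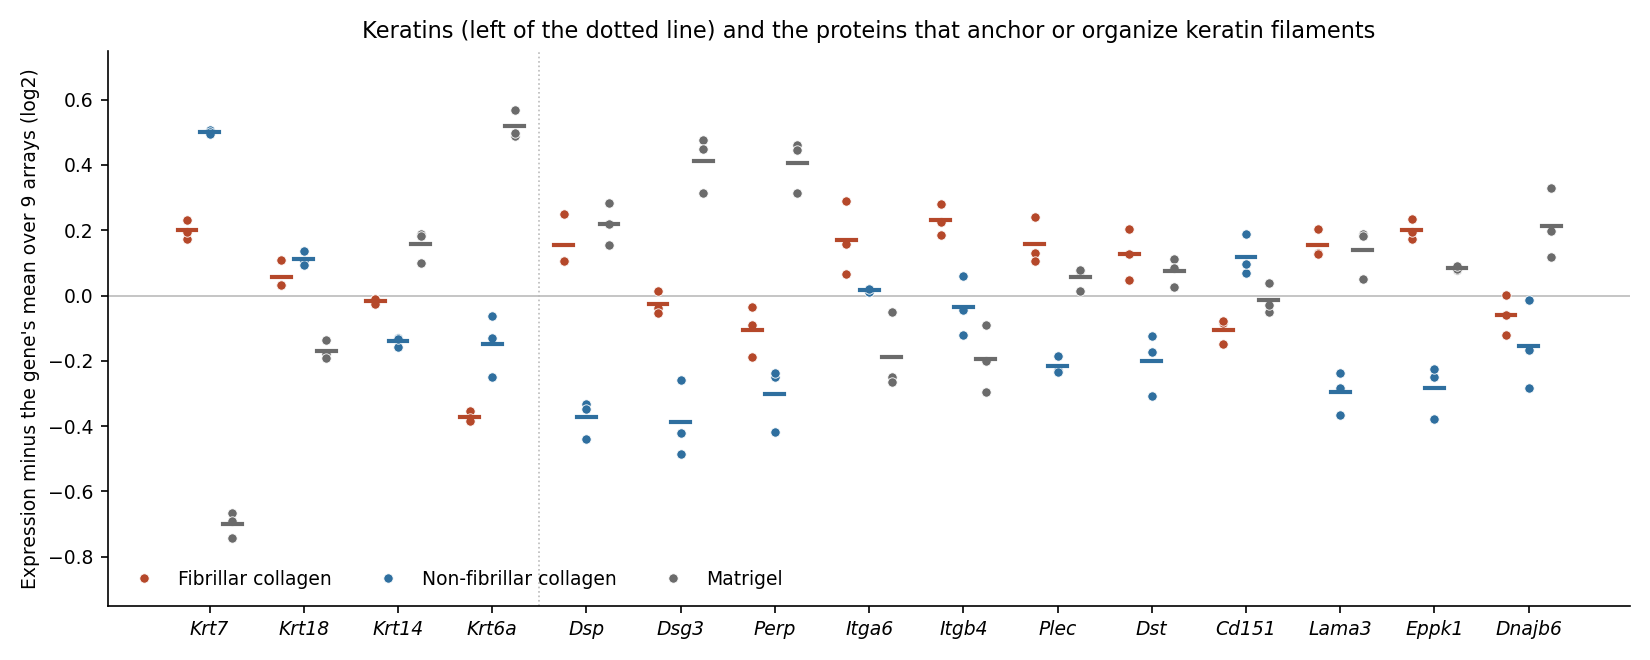
Expression of 4 keratins (left of the dotted line) and of the 11 anchoring and organizing genes called by the F test over the 3 groups, as log2 units minus each gene's mean over 9 arrays; points are arrays and bars are means (n = 3). Dsp, Plec, Dst, Lama3, Eppk1, Dsg3, Perp and Dnajb6 have their lowest mean in non-fibrillar collagen, where Krt7 is highest and Krt14 lowest. The others differ: Itga6 and Itgb4 are lowest in Matrigel, and Cd151 is highest in non-fibrillar collagen.

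Among 16 transcription factors known from keratin promoters, Grhl3, a grainyhead factor of epithelial barriers, was higher in fibrillar collagen than in its non-fibrillar form (0.41 ± 0.0745, limma adjusted p = 0.0293), a call lost without any array but non-fibrillar replicate 2 (up to 0.114). It was lower in non-fibrillar collagen than in Matrigel (-0.55 ± 0.0670, adjusted p = 6.8e-04), as was Grhl1 (-0.37 ± 0.0839, adjusted p = 0.0157; 0.0636 without non-fibrillar replicate 2). Trp63, the p63 gene that drives basal keratins, was at -0.19 ± 0.0819 there (adjusted p = 0.181). In fibrillar collagen against Matrigel 0 of the 16 passed with limma (3.82% of all genes did) and 2 had an unadjusted p under 0.05 (18.1% of all genes); the smallest was that of Grhl1 (-0.30 ± 0.0839, adjusted p = 0.0877). Grhl1 passed there with the replicate block and among genes with a mean of at least 6 (0.0374 at the lowest). Sox9 passed there with the block only (0.0291). Of this list 6.25% was called between the collagens and 12.5% between non-fibrillar collagen and Matrigel, against 6.4% and 13.8% of all genes.

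Of 13 other intermediate filament genes, 0 passed between the collagens with limma (6.4% of all genes did) and 4 had an unadjusted p under 0.05 (21.6% of all genes); the smallest was that of the neurofilament gene Nefm (0.17 ± 0.0391, limma adjusted p = 0.0554). Nefm passed there with all 9 arrays in the fit (0.0444). Nes, nestin, was higher than in Matrigel in fibrillar (0.27 ± 0.0563, adjusted p = 0.0281) and non-fibrillar collagen (0.42 ± 0.0563, adjusted p = 0.0010), and so was the nuclear lamin Lmnb1 (0.27 ± 0.0594, adjusted p = 0.0368, and 0.39 ± 0.0594, adjusted p = 0.0022). The fibrillar calls were lost without any array for Nes (up to 0.0860) and without any but fibrillar replicate 3 for Lmnb1 (up to 0.0991), which also lost it with only the 6 arrays of both groups (0.0726). These 2 genes are 15.4% of the list, against 3.82% of all genes called in fibrillar and 13.8% in non-fibrillar collagen. Vim, vimentin, did not pass: its differences were 0.07, 0.04 and -0.02 in the 3 comparisons.

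Luminal markers were called at 6.25%, 0.0% and 18.8% in the 3 comparisons and basal markers at 20.0%, 10.0% and 20.0%, against 6.4%, 3.82% and 13.8% of all genes. Between fibrillar collagen and Matrigel 2 luminal markers had an unadjusted p under 0.05 (18.1% of all genes). Of 16 luminal markers, the casein Csn3 was lower in fibrillar collagen than in its non-fibrillar form (-0.35 ± 0.0604, limma adjusted p = 0.0258; lost without any array but non-fibrillar replicate 3, up to 0.105). In non-fibrillar collagen against Matrigel, Csn3 (0.43 ± 0.0587), Epcam (0.28 ± 0.0505) and Cldn7 (0.18 ± 0.0475) were higher, with adjusted p of 0.0013, 0.0058 and 0.0341, and Cldn7 lost its call without any array but Matrigel replicate 1 (up to 0.115) and with only the 6 arrays of both groups (0.0626). Csn3 was dim, at 3.78 to 4.35. Of 10 basal markers, Snai2 was lower than in Matrigel in fibrillar (-0.24 ± 0.0509, adjusted p = 0.0299) and non-fibrillar collagen (-0.49 ± 0.0509, adjusted p = 2.8e-04), the first call being lost without any array but fibrillar replicate 1 (up to 0.106) and after quantile normalization again (0.0521). Egfr was lower in non-fibrillar collagen than in Matrigel (-0.20 ± 0.0473, adjusted p = 0.0184), a call lost without non-fibrillar replicate 2 or 3 or Matrigel replicate 3 (up to 0.0669) and after centring on array medians (0.0508). Snai2 and Egfr were also called higher in fibrillar than in non-fibrillar collagen (0.25 ± 0.0533 and 0.21 ± 0.0385), but with a block for replicate number adjusted p was 0.0577 and 0.0633. After centring it was 0.0549 and 0.0530, with array weights 0.0512 for Snai2, and leaving out an array ended the call in every case for Snai2 and in all but fibrillar replicate 1 for Egfr (up to 0.129 and 0.109).

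Some genes known as markers of other cell types moved with some of these changes, and their part in the keratin results was not tested. All groups are the same cultured line, so these are given as single genes and not as counts of such cells. In bulk RNA, a change in some cells and a change in all cells cannot be told apart. The mean over 9 macrophage markers was 5.42 to 5.49 in fibrillar collagen, 5.37 to 5.41 in non-fibrillar collagen and 5.52 to 5.54 in Matrigel, and 1 of the 9 was higher and 1 lower in non-fibrillar collagen than in Matrigel (22.2% called, against 13.8% of all genes). Cd68, also a general lysosomal protein, was lower there (-1.38 ± 0.0812, limma adjusted p = 1.1e-05), lower in fibrillar collagen than in Matrigel (-0.55 ± 0.0812, adjusted p = 0.0068), and higher in fibrillar collagen than in its non-fibrillar form (0.83 ± 0.0810, adjusted p = 0.0067). Cd14, an endotoxin co-receptor, ran the other way, at 0.28 ± 0.0731 for non-fibrillar collagen and Matrigel (adjusted p = 0.0331) and -0.37 ± 0.0787 between the collagens (adjusted p = 0.0466). The first of these Cd14 calls was lost without non-fibrillar replicate 2 or 3 or Matrigel replicate 1 or 2 (up to 0.116), and the second whichever array was left out (up to 0.133). Ptprc did not pass (-0.18 ± 0.0724 for non-fibrillar collagen and Matrigel, adjusted p = 0.159). The mean over 7 fibroblast markers was 6.44 to 6.52, 6.34 to 6.42 and 6.47 to 6.58 in the same order, with Pdgfra lower in non-fibrillar collagen than in Matrigel (-1.01 ± 0.0938, limma adjusted p = 1.5e-04) and Col1a1 at -0.07 ± 0.0469 (adjusted p = 0.436). Pdgfra was higher in fibrillar collagen than in its non-fibrillar form (0.67 ± 0.0947, adjusted p = 0.0153), a call kept only without fibrillar replicate 1 or non-fibrillar replicate 3 (up to 0.0807). That over 4 endothelial markers was 5.36 to 5.37, 5.20 to 5.35 and 5.31 to 5.39, with Kdr lower (-0.47 ± 0.0853) and Pecam1 at 0.07 ± 0.0402 (adjusted p = 0.343). In that comparison 1 of 7 fibroblast markers (14.3%) and 1 of 4 endothelial markers (25.0%) were called, both lower, against 13.8% of all genes. Between the collagens 22.2% of the macrophage, 14.3% of the fibroblast and 0.0% of the endothelial markers were called, against 6.4% of all genes. Kdr was called there in 5 of 8 other settings that kept every array (lowest limma adjusted p = 0.0187) and in 0 of 6 refits without an array.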

How the data were processed

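Values were the deposited log2 expression values of 35512 probe sets on 9 arrays, which the authors obtained by RMA; the submitters' processing notes name it together with Affymetrix Power Tools. Their versions, their settings and whether all arrays went through 1 run: not given in the sources used here. Since RMA gives all arrays nearly the same distribution, a shift common to most genes would not be seen. The platform annotation gave 21789 probe sets 1 gene symbol, 1621 several and left 12102 unlisted; gene identifiers matched RefSeq for 21698, and 0 symbols were renamed. The probe set with the highest mean was kept for the 999 genes with several, which left 19938 genes, with no filter on dim signals. All 8 keratins had 1 probe set annotated with their symbol alone, and 5 of the 8 had a mean of at least 6.

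Groups came from the sample titles. Differences were fitted with limma 3.58.1 in R 4.3.3 (lmFit, eBayes), two-sided, adjusted by Benjamini-Hochberg over all genes at 0.05; the collagens were compared with their own 6 arrays and each Matrigel comparison in a fit of all 9. Errors are SE unless given as SD; folds are log2 differences turned back to a linear scale. Pairs of keratins were tested by exact two-sided permutation over arrays. The text names all 8 keratins, the 3 genes with the smallest p per list and comparison as far as they bear on a result, and the 3 genes most like each called keratin; Cdh1, Vim, Ptprc, Pecam1 and Col1a1 were also given as checks. The keratins, lists and tests were chosen with earlier results of these data known.

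Deviations from group means correlated across genes between same-numbered arrays at 0.221, 0.143 and 0.242 for the collagens, all above 0.1, so the numbers were taken to pair them on this evidence alone, with no label saying so. For fibrillar collagen with Matrigel they were 0.253, 0.103 and 0.0968, and for non-fibrillar collagen with Matrigel 0.125, 0.0449 and 0.135. The main fits and the exact permutation tests left this pairing out. With it as a block, Krt7 kept its call between the collagens and Snai2, Egfr and Cd151 lost theirs, as given at the end. On simulated arrays with 19938 genes, changes of 0.3 and 0.6 log2 units were recovered in 34% and 88% of genes in the collagen comparison, 55% and 89% in fibrillar collagen set against Matrigel, and 46% and 94% in non-fibrillar collagen set against Matrigel. Each simulation changed 100 genes by each size and drew noise independently for every array. Far fewer genes were changed there than were called in the data, so these rates may not carry over. The alternatives tried covered which arrays enter a fit, the replicate block, renormalization, centring, a filter on dim genes, the mean of all probe sets, another prior, array weights, a threshold of 0.01 and leaving out each array.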

Additional observations from a re-analysis of the deposited data

How the results depend on the processing

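Leaving out 1 array at a time lowered the counts of called genes to between 150 and 569 of 1277 between the collagens (the fewest without fibrillar replicate 3), 353 and 513 of 762 for fibrillar collagen against Matrigel (fewest without Matrigel replicate 2), 1814 and 2492 of 2755 for non-fibrillar collagen and Matrigel, and 1976 and 2640 of 2990 by the F test. The cause of other changes was not tested. At a threshold of 0.01 these counts were 168, 239, 1419 and 1339, fewer by construction. Among genes with a mean of at least 6 they were 2111 and 1211 in the first 2 comparisons, and 460 for fibrillar collagen against Matrigel with only those 6 arrays. Between the collagens 42.4% of calls were higher in fibrillar collagen, against 51.1% after quantile normalization again and 30.3% after centring. For fibrillar collagen against Matrigel 37.9% were higher, and 50.5% after quantile normalization again; for non-fibrillar collagen and Matrigel 48.8% were higher, and 62.8% after centring.

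Of the 8 keratins, 2 (Krt7 and Krt14) were called between the collagens after quantile normalization again, among genes with a mean of at least 6 and with a trended robust prior, and 0 to 1 without an array. Against Matrigel, 1 was called in fibrillar collagen at 0.01, and 2 to 3 without an array. Signs turned only for differences that were not called. Between the collagens Krt8 was at 0.0339 after quantile normalization again and from -0.0376 to 0.0197 without an array, Krt17 from -0.0276 to 0.0018, Tek from -0.0168 to 0.0013, and Pecam1 at -0.0097 (quantile), -0.0033 (centred) and from -0.0059 to 0.032. Between non-fibrillar collagen and Matrigel, Krt19 was from -0.0277 to 0.1162, Krt5 at -0.0043 with array weights and from -0.039 to 0.0345, and Krt15 at 0.031 (quantile), 0.0356 (centred), 0.0012 (weights) and from -0.0124 to 0.0193.

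With replicate number as a block, the collagen comparison called 1285 genes and Krt7 (adjusted p = 0.0272, limma). Same-numbered arrays were not shown to pair with Matrigel, where the block gave 1020 and 3244 calls, 3633 by the F test, and Krt14 lost its call in fibrillar collagen (0.0542). Between the collagens the block also ended the calls of Snai2 (0.0577), Egfr (0.0633) and Cd151 (0.0509). Krt19, Krt5 and Krt17 had means under 6, and Krt19 and Krt17 had values repeated across arrays, which limits what their differences show.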
